A study of Mus musculus with 6 samples.

Results

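The 10 genes described here belong to the Notch pathway: the receptor genes Notch1, Notch2, Notch3 and Notch4, the ligand genes Jag1, Dll1 and Dll4, and the target genes Hes1, Hey1 and Heyl. They were taken by name from the 32286 features counted in single cells of mouse quadriceps muscle, collected 5 days after injury with cardiotoxin, a snake venom toxin that kills muscle fibres. Each of the 6 libraries came from its own mouse, and all 6 mice, controls included, carried Cdh5-CreERT2, a tamoxifen-inducible Cre driven by the endothelial Cdh5 promoter, with the R26R-tdTomato reporter. In the CLL group, 3 mice received clodronate liposomes, which partly ablate circulating monocytes and so lower the entry of macrophages into the injured muscle, and the 3 mice of the SHAM group received liposomes filled with PBS. Both were injected into a vein 1 day before and 2 days after the injury. No age, sex or tamoxifen schedule of the mice was used here. The comparison asks whether the Notch genes stood at another level in vessel and muscle cells of injured muscle when fewer monocytes could enter it.

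Notch receptors are cell surface proteins that are cut when they bind a ligand on a neighbouring cell, and the freed intracellular part joins the DNA-binding protein RBPJ to switch on genes such as those of the Hes and Hey families. In muscle, Notch signalling is known for keeping satellite cells, the Pax7-positive stem cells of the fibre, from differentiating too early. In vessels, Dll4 and Notch1 set the balance between sprouting and non-sprouting endothelial cells, Dll4, Hey1 and Jag1 mark arterial endothelium, and Notch3 is the receptor of pericytes and smooth muscle cells, the mural cells that wrap the vessel wall.

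Of 60282 deposited cell barcodes, 46685 were kept after filters on gene number, mitochondrial share and doublets. Levels are unique molecular identifiers (UMIs) per 1000000 UMIs of a cell class in a library (CPM). The cells were clustered, and a cluster was named only from marker lists that hold none of the 10 genes. The endothelial-like class held 3312 cells, the mural-like class 1095 and the myogenic-like class 3773. The CLL libraries contributed few vessel cells, with 40, 204 and 58 endothelial-like and 21, 51 and 17 mural-like cells in CLL replicates 1, 2 and 3, against 2541, 284 and 185 endothelial-like and 866, 99 and 41 mural-like cells in SHAM replicates 1, 2 and 3. Myogenic-like cells numbered 366, 438 and 547 in the CLL libraries and 2166, 125 and 131 in the SHAM libraries. Macrophage/monocyte-like cells made up 18.06%, 5.1% and 18.37% of kept cells in the CLL libraries. In the SHAM libraries they made up 30.35%, 23.76% and 6.9%, so these shares overlapped between the groups. Depth differed: CLL replicate 2 and SHAM replicate 3 stood apart with medians of 1624 and 879 UMIs per kept cell, against 2760 to 13820 in the other 4 libraries. In SHAM replicate 3 the clusters left unnamed held 80.2% of the kept cells. Within the endothelial-like, mural-like and myogenic-like classes SHAM replicate 3 was the deepest of the 6 libraries, with medians of 6787, 10979 and 20991 UMIs per cell. Any 2 libraries shared 2 to 57 cell barcodes. Cdh5, the VE-cadherin gene, lay at 727 to 1575 CPM in the endothelial-like class, Rgs5 at 3355 to 9647 CPM in the mural-like class, and Pax7 at 84.2 to 182 CPM in the myogenic-like class. The classes were named from marker lists, so these levels do not test the labels. Clustered again within a class, some subclusters carried markers of another class. Fibroblast markers led endothelial-like subcluster 3 (984 cells), mural markers led endothelial-like subcluster 9 (225 cells), and Myf5 and Pax7 were among the top genes of mural-like subcluster 6 (47 cells).

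Across the named classes, the 4 receptors were highest in different places. Notch4 (chr17:34564268-34588503, plus strand, GRCm38) was the most restricted receptor, with a median over libraries of 69.2 CPM in the endothelial-like class (range 47.1 to 85.2) and a median of at most 5.51 CPM in any other class. Notch3 (chr17:32120820-32166852, minus strand) had its highest median in the mural-like class, 478 CPM (range 321 to 712), followed by 120.9 CPM in the myogenic-like class (range 66.9 to 169), and these ranges did not meet. Notch1 (chr2:26457903-26516663, minus strand) stood highest in the endothelial-like class at a median of 113 CPM (range 76.4 to 166), and the myogenic-like and mural-like classes next in that order, at 63.8 and 53.4 CPM, overlapped with it and with each other. The order of these last classes depended on the group. The mural-like mean was 89.1 CPM against 77 CPM in the myogenic-like class in SHAM, and 24.9 CPM against 48.6 CPM in CLL. Notch2 (chr3:98013527-98150361, plus strand) showed no peak like those of the other receptors: its medians ran from 61.9 CPM in the glial-like class to 10.3 CPM in the endothelial-like class, with overlapping neighbours throughout.

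Among the ligands, Dll4 (chr2:119325784-119335962, plus strand) was close to endothelial only, at a median of 52.9 CPM in that class (range 33.4 to 84.6) and at most 1.15 CPM elsewhere. Jag1 (chr2:137081456-137116644, minus strand) was highest in the mural-like class at 129 CPM (range 93.8 to 174), ahead of the endothelial-like class at 42.8 CPM, and the ranges of these classes did not meet. Dll1 (chr17:15367354-15376872, minus strand) had its highest median in the myofibre-like class at 23.1 CPM, with the endothelial-like class at 21 CPM and overlapping it, and the myogenic-like class at 10.7 CPM. Of the targets, Hes1 (chr16:30064384-30067796, plus strand) was found in all 11 named classes, with medians from 244 CPM in the mural-like to 14.2 CPM in the dendritic-like class. Hey1 (chr3:8663359-8667256, minus strand) was highest in the endothelial-like class at 24.3 CPM, and Heyl (chr4:123233556-123249875, plus strand) in the mural-like class at 124 CPM, followed by the myogenic-like class at 98.7 CPM with overlap in range. These levels are a description with no test, because the classes were built from the same cells, and Notch3, 1 of the 10, was among the genes used for clustering.

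**Figure D1:**
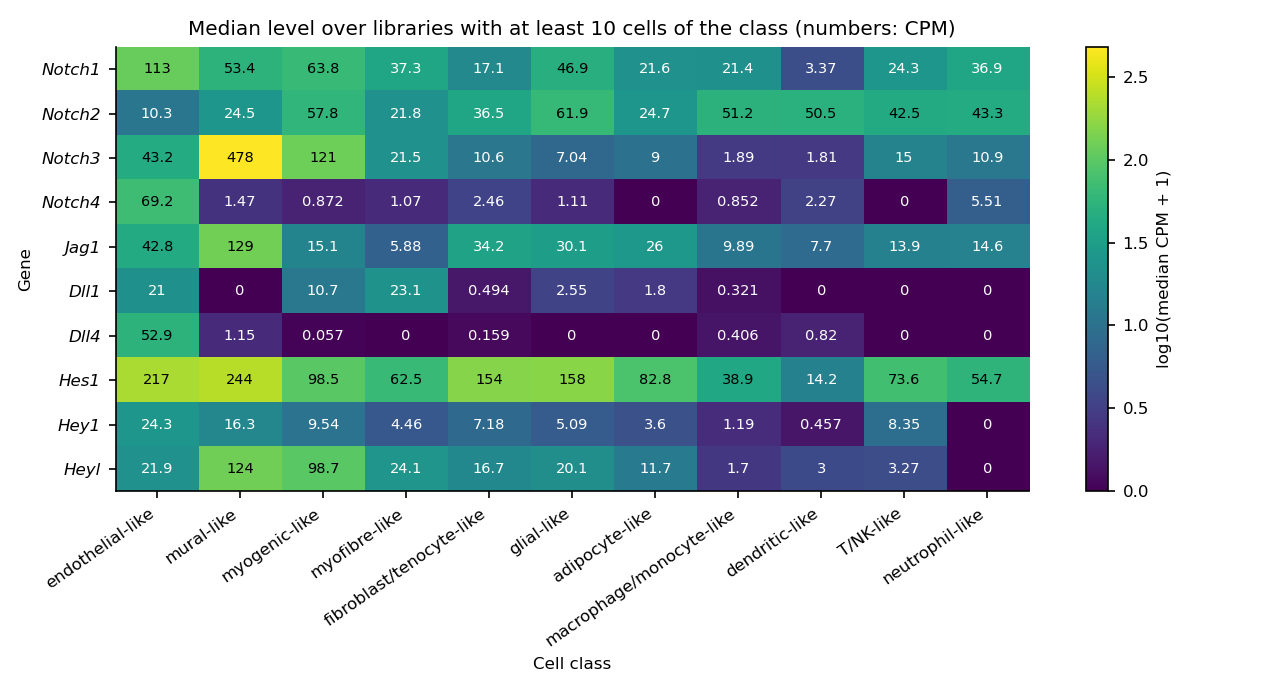
Median level of the 10 Notch genes (rows) in the 11 named cell classes (columns), in CPM, over libraries with at least 10 cells of the class; colour is log10 of the median plus 1 and the printed numbers are the medians. Notch4 and Dll4 stand out in the endothelial-like column (69.2 and 52.9 CPM), Notch3 and Jag1 in the mural-like column (478 and 129 CPM).

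In the myogenic-like class, 3 receptor genes and 2 target genes lay lower in every CLL library than in any SHAM library, and 2 of the receptors passed the test across all genes. Notch3, a receptor of satellite cells as well as mural cells, lay at 81.3, 66.9 and 91.6 CPM in CLL replicates 1, 2 and 3, against 150.2, 169 and 162 CPM in SHAM replicates 1, 2 and 3. Every CLL library was below every SHAM library, and Notch3 fell by 0.91 ± 0.16 on the log2 scale (SE; edgeR adjusted p = 0.0147). Notch2, which satellite cells also carry, lay at 43.8, 54.1 and 37.1 CPM in the CLL libraries and at 91.2, 61.5 and 83.6 CPM in the SHAM libraries. Its groups did not overlap either, and Notch2 fell by 0.74 ± 0.17 on the log2 scale (edgeR adjusted p = 0.0392). Of the 8 members tested in this class these 2 were called, both lower, where 6.95% of all 11612 genes tested were called, 3.88% lower and 3.07% higher. Notch4 and Dll4 were too low to test.

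The other myogenic members did not pass. Notch1 lay at 50.3, 39.2 and 56.4 CPM in the CLL libraries and at 87.3, 72.4 and 71.2 CPM in the SHAM libraries, a log2 difference of -0.56 ± 0.16 (edgeR adjusted p = 0.0664). Hey1, a transcriptional repressor switched on by Notch, lay at 6.57, 8.95 and 6.62 CPM in the CLL libraries and at 18, 14.6 and 10.1 CPM in the SHAM libraries (log2 difference -0.92 ± 0.25, edgeR adjusted p = 0.0611). Heyl, a Hey family target gene active in satellite cells, lay at 78.3, 68.6 and 92.7 CPM in the CLL libraries and at 126, 107 and 104.7 CPM in the SHAM libraries (log2 difference -0.40 ± 0.14, edgeR adjusted p = 0.13). For these 3 genes, too, each CLL library was below each SHAM library, so that 5 of the 8 tested members had groups that did not overlap and were lower in CLL. Of all genes tested, 18.8% did the same, and 10.5% lay apart in the other direction. Hes1, a repressor switched on by Notch in many tissues, overlapped, with 100.8, 75.8 and 96.3 CPM against 142, 132 and 87.9 CPM (log2 difference -0.31 ± 0.20, edgeR adjusted p = 0.367). Jag1 overlapped as well (log2 difference -0.46 ± 0.23, edgeR adjusted p = 0.254). Dll1, the ligand that differentiating muscle cells present to their neighbours, was the only tested member above 0, at 10.8, 10.7 and 14.1 CPM against 9.06, 13.7 and 6.07 CPM (log2 difference 0.47 ± 0.30, edgeR adjusted p = 0.353). The median log2 difference of the 8 tested members was -0.51, against -0.05 over all genes tested.

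**Figure D2:**
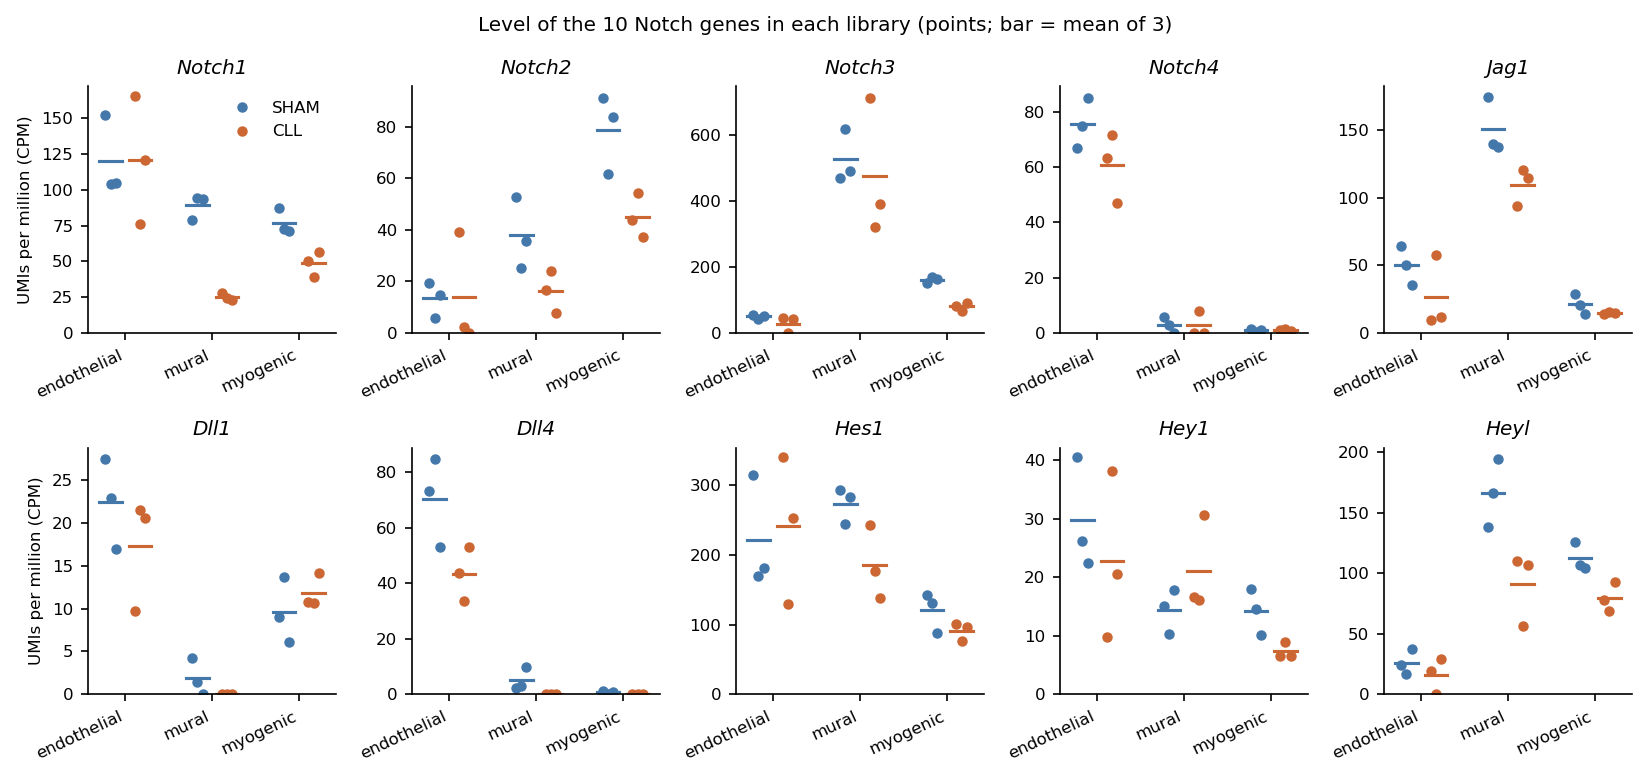
Level of each Notch gene in each library, in CPM (y axis, linear and from 0), for the endothelial-like, mural-like and myogenic-like classes (x axis); points are libraries (blue SHAM, orange CLL) and bars the mean of 3. In the myogenic-like class the 3 CLL points of Notch1, Notch2, Notch3, Hey1 and Heyl lie below the 3 SHAM points, and in the mural-like class those of Notch1, Jag1, Hes1 and Heyl do (for Notch1 22.9 to 27.6 against 79.2 to 94.3 CPM).

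Leaving out CLL replicate 1, CLL replicate 2 or CLL replicate 3 ended both receptor calls: the edgeR adjusted p became 0.159, 0.052 and 0.18 for Notch2 and 0.0794, 0.0577 and 0.062 for Notch3. Without SHAM replicate 1 only Notch3 was called (edgeR adjusted p = 0.0231, against 0.114 for Notch2), and without SHAM replicate 3 Notch3 (0.0346) and Hey1 (0.0354) were, while Notch2 was not (0.0828). Without CLL replicate 2 and SHAM replicate 3, the 2 libraries of fewest UMIs per kept cell, neither receptor was called (0.0814 and 0.0882), and Hey1 was (log2 difference -1.18, edgeR adjusted p = 0.049). Within the myogenic-like class SHAM replicate 3 was the deepest library, so that fit is no check on depth here. The log2 difference kept its sign for Notch1, Notch2 and Notch3 in all 18 alternatives that gave a value, between -0.46 and -0.94 for Notch2 and between -0.46 and -1.01 for Notch3.

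The makeup of the myogenic-like class moved with the same comparison. Subclusters led by muscle stem cell markers (7 and 8) held 2.33% of the myogenic-like cells in the CLL libraries (range 2.01 to 2.51) and 52.3% in the SHAM libraries (range 44.3 to 56.8). The summed level of 8 muscle stem markers ran from 458 to 480 CPM in the CLL libraries and from 867 to 941 CPM in the SHAM libraries, and 6 of the 8 were called lower in CLL. Within the SHAM libraries alone, Notch3 lay at 212, 233 and 239 CPM in subcluster 8, at 163, 128 and 179 CPM in subcluster 2 and at 112, 93.7 and 34 CPM in subcluster 0, so that in each of the 3 libraries it was higher in subcluster 8 than in the other 2. Notch2 overlapped between subclusters 8 and 2 in these libraries, at 90.3, 65.5 and 108 CPM against 86, 42.7 and 127 CPM. Subcluster 7 was nearly all from SHAM replicate 1, with 1138 of 1173 cells, whereas subcluster 8 held 70, 67 and 52 cells in the SHAM libraries and 4, 1 and 1 in the CLL libraries.

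Within subclusters 0, 2 and 3, the only ones with at least 5 cells in every library, and in the stem-led subclusters, no member was called. In subcluster 2, present in all 6 libraries with 14 to 248 cells, Notch3 lay at 104, 95.7 and 95 CPM in the CLL libraries and at 163, 128 and 179 CPM in the SHAM libraries (log2 difference -0.64 ± 0.18, edgeR adjusted p = 0.118). Notch1 had a log2 difference of -0.29 ± 0.20 in that subcluster (edgeR adjusted p = 0.628). Notch2 overlapped there, at 54.5, 62.8 and 41.2 CPM against 86, 42.7 and 127 CPM (log2 difference -0.67 ± 0.26, edgeR adjusted p = 0.304). In the cycling-like subcluster 3, Notch3 had a log2 difference of -0.46 ± 0.24 (edgeR adjusted p = 0.45) and overlapped between groups. In subcluster 0, Heyl was the only member with enough counts to test (log2 difference -1.82 ± 0.52, edgeR adjusted p = 0.0513). In the subclusters in which stem markers outranked differentiation markers (7, 8 and 9), no gene was called, and the log2 differences were -0.94 ± 0.29 for Notch2 and -0.82 ± 0.25 for Notch3 (edgeR adjusted p = 0.616 for both). This set held only 13, 16 and 30 cells in CLL replicates 1, 2 and 3, of which subcluster 9 gave 4, 5 and 19. Subclusters 1, 4, 5 and 9 of this class were led by macrophage, dendritic or fibroblast markers. Without them Notch1, Notch2, Notch3, Hey1 and Heyl were all called lower (log2 differences -0.54, -0.75, -0.90, -1.04 and -0.46, the highest edgeR adjusted p being 0.0336). Calls over all genes rose as well in that fit, to 1526, against 807 in the fit of the whole class. The ligand Dll1 had another pattern, with 47.1 CPM in the differentiating muscle-like subcluster 6 and 8.46 CPM in subcluster 7. Macrophage and monocyte markers in the class summed to 1864 to 3112 CPM in the CLL and 872 to 7217 CPM in the SHAM libraries, with 0 of 11 tested called. The part of the makeup in the class-wide difference was not tested beyond these values.

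**Figure D3:**
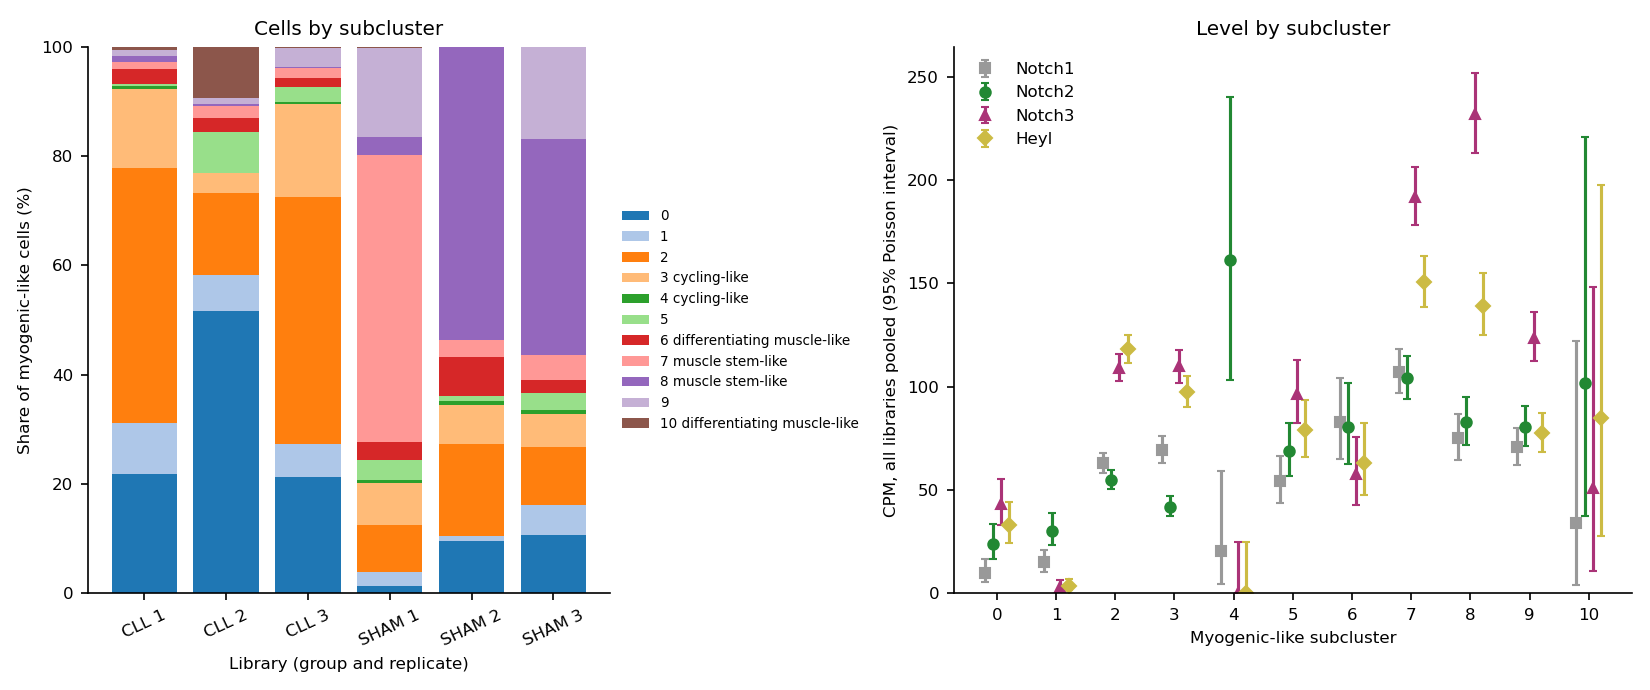
Left, share of the myogenic-like cells of each library (x axis) in each subcluster (colours), in percent. Right, level of Notch1, Notch2, Notch3 and Heyl by subcluster in CPM with all libraries pooled and 95% Poisson intervals, which cover counting error only; the stem-led subclusters 7 and 8 hold 2.33% of the CLL and 52.3% of the SHAM cells on average, and since the shares of the groups differ by subcluster, the pooled levels mix subcluster and group (within SHAM libraries Notch3 is at 212 to 239 CPM in subcluster 8 and 128 to 179 CPM in subcluster 2).

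Thinned to 1000 UMIs per cell, a UMI of Notch3 was found in 5.61% of the myogenic-like cells of the CLL libraries (range 3.08 to 8.80) and in 13.7% of those of the SHAM libraries (range 12.2 to 15.2); 96 CLL and 79 SHAM cells were too shallow and were left out. Without thinning these shares were 40.2% and 61.4%. In the macrophage/monocyte-like class, where Notch3 is not a typical gene, the thinned share was 0.311% and 0.289%, and the share without thinning 0.919% and 2.43%.

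The sequences just upstream of the 3 receptor genes that lay lower without overlap in the myogenic-like class are shown because they share a short motif. RefSeq start sites on build GRCm38.p6 were available for 7 of the 10 genes. The stretches lie at chr2:26503825-26504072 on the minus strand for Notch1, whose RefSeq start lies inside the longer annotated gene span, at chr3:98013288-98013526 on the plus strand for Notch2, and at chr17:32166891-32167140 on the minus strand for Notch3. They are printed 5′ to 3′ up to the annotated transcript start, with each GGGCGG, on either strand, in capitals. For Notch3 the stretch ends at the RefSeq start, which lies upstream of the annotated gene start at chr17:32166852. GGGCGG is the core of the GC box bound by Sp family factors.
Notch1: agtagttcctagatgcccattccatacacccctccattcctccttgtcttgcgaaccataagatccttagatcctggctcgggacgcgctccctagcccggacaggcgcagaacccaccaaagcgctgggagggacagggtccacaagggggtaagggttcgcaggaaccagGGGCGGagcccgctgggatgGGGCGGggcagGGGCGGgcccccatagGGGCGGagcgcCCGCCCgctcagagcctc
Notch2: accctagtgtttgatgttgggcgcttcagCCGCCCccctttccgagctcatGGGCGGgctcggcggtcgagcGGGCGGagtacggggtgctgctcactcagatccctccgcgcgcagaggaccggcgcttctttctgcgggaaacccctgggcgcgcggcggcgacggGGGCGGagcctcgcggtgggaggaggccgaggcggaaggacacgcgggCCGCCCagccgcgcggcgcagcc
Notch3: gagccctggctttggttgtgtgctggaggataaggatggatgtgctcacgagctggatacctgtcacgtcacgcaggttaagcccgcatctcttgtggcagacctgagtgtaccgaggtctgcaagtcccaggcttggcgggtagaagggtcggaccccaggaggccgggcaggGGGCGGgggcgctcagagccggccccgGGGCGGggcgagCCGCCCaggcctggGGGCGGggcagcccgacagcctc
In the 250 bases before the start, GGGCGG occurred 5, 5 and 4 times in Notch1, Notch2 and Notch3 and 2 times in Dll4, and it was absent from Notch4, Jag1 and Dll1; 32.7% of 32851 such windows in the genome hold it. The core of the RBPJ motif, TGGGAA on either strand, was in none of the 8 windows of the 7 genes, while 21.6% of all windows hold it. The E-box letters CANNTG, the family of sites that MyoD binds, were absent from the windows of Notch1, Notch2, Notch3 and Dll4, while 66.2% of all windows hold them. The GC content of the windows was 66%, 72% and 68.8% for Notch1, Notch2 and Notch3, against a median of 52.4% over all windows. These matches describe the letters of a short window and nothing about binding.

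In the mural-like class no member was called, and 0 of the 5171 genes tested were (0% called; 466 genes were under an unadjusted p of 0.05, and DESeq2 called 27). Notch1 differed most: it was counted with 5, 3 and 3 UMIs in CLL replicates 1, 2 and 3, or 27.6, 24.1 and 22.9 CPM, and with 206, 64 and 58 UMIs in SHAM replicates 1, 2 and 3, or 79.2, 94.3 and 94 CPM. The groups lay far apart, with a log2 difference of -1.76 ± 0.35, but the edgeR adjusted p was 0.103. Over the alternatives it ran from 0.0037 without a filter on low counts to 0.666 without CLL replicate 2 and SHAM replicate 3. The log2 difference stayed between -1.69 and -2.02 in all 15 alternatives.

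Heyl, a Notch target gene known from vascular smooth muscle, lay at 110, 56.1 and 107 CPM in the CLL libraries and at 138, 166 and 194 CPM in the SHAM libraries of the mural-like class (log2 difference -0.78 ± 0.31, edgeR adjusted p = 0.475). Hes1 lay at 243, 176 and 138 CPM against 292, 244 and 284 CPM (log2 difference -0.49 ± 0.27, edgeR adjusted p = 0.632). Jag1, the ligand that vessel wall cells use to instruct each other, lay at 93.8, 120.3 and 115 CPM against 174, 140 and 138 CPM (log2 difference -0.42 ± 0.26, edgeR adjusted p = 0.67). In each of these 3 genes, as in Notch1, every CLL library was below every SHAM library, 4 of the 5 tested members. Of all genes tested, 10.5% lay apart in that direction and 4.97% in the other. Notch3, the most abundant marker of this class among the 10, overlapped fully, with 712, 321 and 390 CPM against 468, 618 and 489 CPM (log2 difference -0.09 ± 0.32, edgeR adjusted p = 0.977). Notch2 and Hey1 were too low to test, at 16.6, 24.1 and 7.64 CPM against 52.7, 25 and 35.6 CPM for Notch2 and at 16.6, 16 and 30.6 CPM against 15, 10.3 and 17.8 CPM for Hey1. Dll4 and Dll1 had no UMI in the mural-like cells of the CLL libraries, where 3 counts would stand for 16.6 to 24.1 CPM, and at most 9.72 CPM in the SHAM libraries, so their levels could not be compared at this depth. Notch4 stood at 0 to 8.02 CPM in the 6 libraries.

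Within the mural-like class, the pericyte-like subcluster held 4, 4 and 1 cells of the CLL libraries, or 10.9% of the class on average, against 45.8% in the SHAM libraries (range 35.8 to 57.6). Subclusters without a name held 76.6% of the mural-like cells in the CLL libraries and 32.9% in the SHAM libraries. Within the SHAM libraries alone, Notch1 lay at 122, 150.1 and 150 CPM in pericyte-like cells and at 73.6, 25.3 and 144 CPM in smooth muscle-like cells, of which SHAM replicates 2 and 3 held 11 and 8. In these libraries smooth muscle-like cells carried more Jag1, at 366, 211 and 280 CPM against 141, 126 and 98.1 CPM, and more Hes1, at 640, 456 and 651 CPM against 229, 225 and 201 CPM. Heyl was higher in pericyte-like cells of each SHAM library, at 225, 189 and 263 CPM against 123, 160 and 136 CPM. The 12 mural markers summed to 6496 to 13550 CPM in the CLL libraries and 10230 to 17410 CPM in the SHAM libraries, and none of them was called. Macrophage and monocyte markers summed to 348 to 553 CPM in the CLL libraries and to 452 to 5480 CPM in the SHAM libraries. The part of either in the Notch1 difference was not tested.

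In the endothelial-like class, none of the 10 members was called, none was under an unadjusted p of 0.05, and all 10 overlapped between groups. Of the 9354 genes tested, 0.385% were called, 0.331% lower and 0.0535% higher, and 15.2% lay apart and lower in CLL, 2.65% apart and higher. DESeq2 called none of the members either. The test with a term for the replicate number, whose samples deviated together in this class, also called none, while its count over all genes rose from 36 to 118. Notch1, the receptor that Dll4 activates in sprouting vessels, lay at 166, 76.4 and 121 CPM in the CLL libraries and at 152, 104 and 105 CPM in the SHAM libraries (log2 difference 0.11 ± 0.28, edgeR adjusted p = 0.95). Notch4, a receptor confined largely to endothelium, lay at 63.3, 71.6 and 47.1 CPM against 66.8, 75 and 85.2 CPM (log2 difference -0.16 ± 0.26, edgeR adjusted p = 0.925). Dll4, the ligand of tip and arterial cells, lay at 43.8, 33.4 and 53 CPM against 73.3, 84.6 and 52.9 CPM (log2 difference -0.56 ± 0.29, edgeR adjusted p = 0.654), and CLL replicate 3 met the lowest SHAM library. Jag1 was low in CLL replicates 1 and 3, at 9.74 and 11.8 CPM, and at 57.3 CPM in CLL replicate 2, against 35.2 to 64.2 CPM in the SHAM libraries (log2 difference -0.59 ± 0.46, edgeR adjusted p = 0.805). Without CLL replicate 2 the Jag1 difference was -2.06 on the log2 scale (edgeR adjusted p = 0.112), and without CLL replicate 3 it was -0.19. These Jag1 values rest on few molecules, as CLL replicates 1 and 3 held 40 and 58 endothelial-like cells. In CLL replicate 1, 9.74 CPM stands for 2 UMIs.

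The endothelial target genes gave no more than this. Hes1 lay at 341, 129 and 253 CPM against 314, 170 and 181 CPM (log2 difference 0.26 ± 0.33), and the shallow CLL replicate 2 was the lowest of the 6. Hey1, which fixes arterial identity, had 9.74, 38.2 and 20.6 CPM against 40.5, 26.3 and 22.4 CPM (log2 difference -0.10 ± 0.40). Dll1 had 9.74, 21.5 and 20.6 CPM against 27.4, 22.9 and 16.9 CPM (log2 difference -0.14 ± 0.38), and Notch2 had 38.9, 2.39 and 0 CPM against 19.5, 5.84 and 14.7 CPM (log2 difference -0.36 ± 0.88). The Dll1 values rest on 2 to 9 UMIs per CLL library.

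Notch3 and Heyl, both high in mural cells, lay higher in a pericyte-led subcluster of the endothelial-like class than in its arterial-like one. Notch3 lay at 43.8, 0 and 41.2 CPM in the CLL libraries and at 55.3, 42.5 and 51.8 CPM in the SHAM libraries (log2 difference -0.86 ± 0.55, edgeR adjusted p = 0.747). The 12 mural markers summed to 151 to 251 CPM in the CLL libraries and to 1331 to 1983 CPM in the SHAM libraries, and 10 of the 12 were called lower in CLL; Kcnj8, Vtn, Higd1b and Cox4i2 were at 0 in all 3 CLL libraries. Subcluster 9, led by such pericyte genes, held no cell of the CLL libraries and 202, 11 and 12 cells of the SHAM libraries, and it carried 273 CPM of Notch3 and 113 CPM of Heyl, against 4.92 and 1.97 CPM in the arterial-like subcluster. The Notch3 of CLL replicates 1 and 3, at 43.8 and 41.2 CPM, therefore came from other endothelial-like cells, and which ones was not tested. Without cells that held UMIs of 2 or more mural markers, the Notch3 difference turned to 0.60 on the log2 scale. Macrophage markers in the class summed to 229 to 516 CPM in the CLL and 1017 to 2175 CPM in the SHAM libraries, with 3 of 10 tested called lower, and their part in the member values was not tested.

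Along the vessel, the arterial-like subcluster carried the most Dll4, at 112 CPM pooled (95% Poisson interval 100.3 to 124), with 66.6 CPM of Hey1, 71.9 CPM of Jag1 and 105 CPM of Notch4. The venous-like subcluster had 20.6 CPM of Dll4, 10.3 CPM of Hey1 and 34.7 CPM of Notch4, but the highest Dll1 of the named subclusters, 76.9 CPM against 26.6 CPM in arterial-like cells. The 30 lymphatic-like cells carried 547 CPM of Hes1 (95% Poisson interval 458 to 649) and 8.36 CPM of Notch4. These are sums over all libraries, in which SHAM replicate 1 gave most cells, and the subclusters were formed from the same cells without the 10 genes among those used for clustering.

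**Figure D4:**
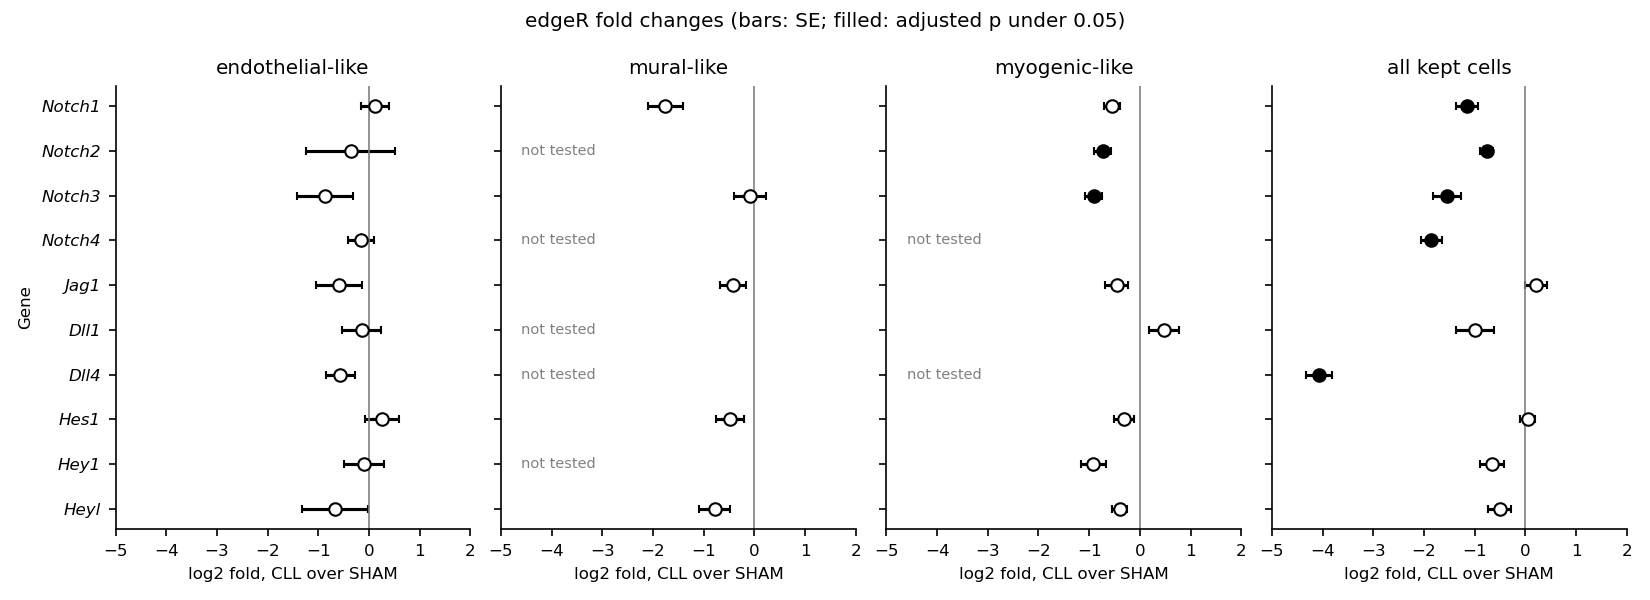
log2 fold change of CLL over SHAM (x axis) for each of the 10 genes (rows) in the 3 classes and in all kept cells, by edgeR; bars are standard errors and filled circles an adjusted p under 0.05. No circle is filled in the endothelial-like and mural-like panels, Notch2 and Notch3 are filled in the myogenic-like panel (-0.74 and -0.91), and 5 genes are filled for all kept cells.

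Whether the CLL difference itself differed between classes was tested as the class-by-treatment term for each of the 3 pairs of classes, and no member passed in any pair, where 0.0268%, 0.604% and 0.147% of all genes tested did. The lowest edgeR adjusted p was 0.239, for Dll4 between the myogenic-like and endothelial-like classes. For Notch1, the mural-like difference minus the endothelial-like one was -1.91 ± 0.47 on the log2 scale (edgeR adjusted p = 0.513), and the myogenic-like minus the mural-like one was 1.25 ± 0.41 (edgeR adjusted p = 0.339). For Notch3, the myogenic-like minus the mural-like difference was -0.72 ± 0.29 (edgeR adjusted p = 0.454), and the myogenic-like minus the endothelial-like one was -0.03 ± 0.59 (edgeR adjusted p = 0.999). The myogenic calls are therefore not shown to differ from the other classes.

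Over all kept cells of a library, where fewer cells of a type and fewer molecules per cell cannot be told apart, Notch1, Notch2, Notch3, Notch4 and Dll4 fell, 5 of the 10 members, where 36.6% of all 16687 genes tested were called, 19% lower and 17.6% higher. The groups of these 5 genes, Hey1 and Heyl did not overlap, 7 of the 10 members lower in CLL, as did 28.9% of all genes (21.5% were apart and higher). Dll4 had 28, 26 and 36 UMIs in the CLL libraries and 795, 215 and 183 UMIs in the SHAM libraries, or 0.467, 0.498 and 0.544 CPM against 11.5, 9.44 and 5.90 CPM. The log2 difference was -4.07 ± 0.26 (edgeR adjusted p = 8.5e-05), against -0.56 within the endothelial-like class. Notch4 lay at 2.44, 3.50 and 2.02 CPM against 11.2, 8.82 and 10.1 CPM (log2 difference -1.86 ± 0.21, edgeR adjusted p = 0.000496). Notch3 fell by 1.54 ± 0.27, Notch1 by 1.15 ± 0.22 and Notch2 by 0.76 ± 0.13 on the log2 scale, with edgeR adjusted p values of 0.0037, 0.0046 and 0.0033. These 5 calls stood in all 13 alternatives. Dll1 (-0.99 ± 0.37), Hey1 (-0.66 ± 0.24) and Heyl (-0.51 ± 0.23) did not pass, nor did Jag1 (0.22 ± 0.21) and Hes1 (0.04 ± 0.14). Dll1 passed in 4 alternatives, Hey1 in 3, and Jag1 without SHAM replicate 1, where it was higher in CLL (0.52, edgeR adjusted p = 0.0195). Endothelial-like cells made up 1.03% to 2.01% of kept cells in the CLL libraries and 3.00% to 15.4% in the SHAM libraries.

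The classes that supplied each gene's UMIs differed accordingly. Endothelial-like cells held 83.8% of the Dll4 UMIs in the SHAM libraries (range 78.4 to 94.4) and 45.3% in the CLL libraries (range 32.1 to 53.9). For Notch4 that share was 79.1% in the SHAM and 12.4% in the CLL libraries, where fibroblast/tenocyte-like cells held 71.7% of the few Notch4 UMIs, against 5.09% in the SHAM libraries. Mural-like cells held 31.2% of the Notch3 UMIs in the SHAM libraries and 7.91% in the CLL libraries, and myogenic-like cells 38.2% and 48%. Of Jag1 and Hes1, whose totals did not pass the test, fibroblast/tenocyte-like cells held 29.6% and 37.1% in the SHAM libraries and 81.9% and 82.1% in the CLL libraries.

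**Figure D5:**
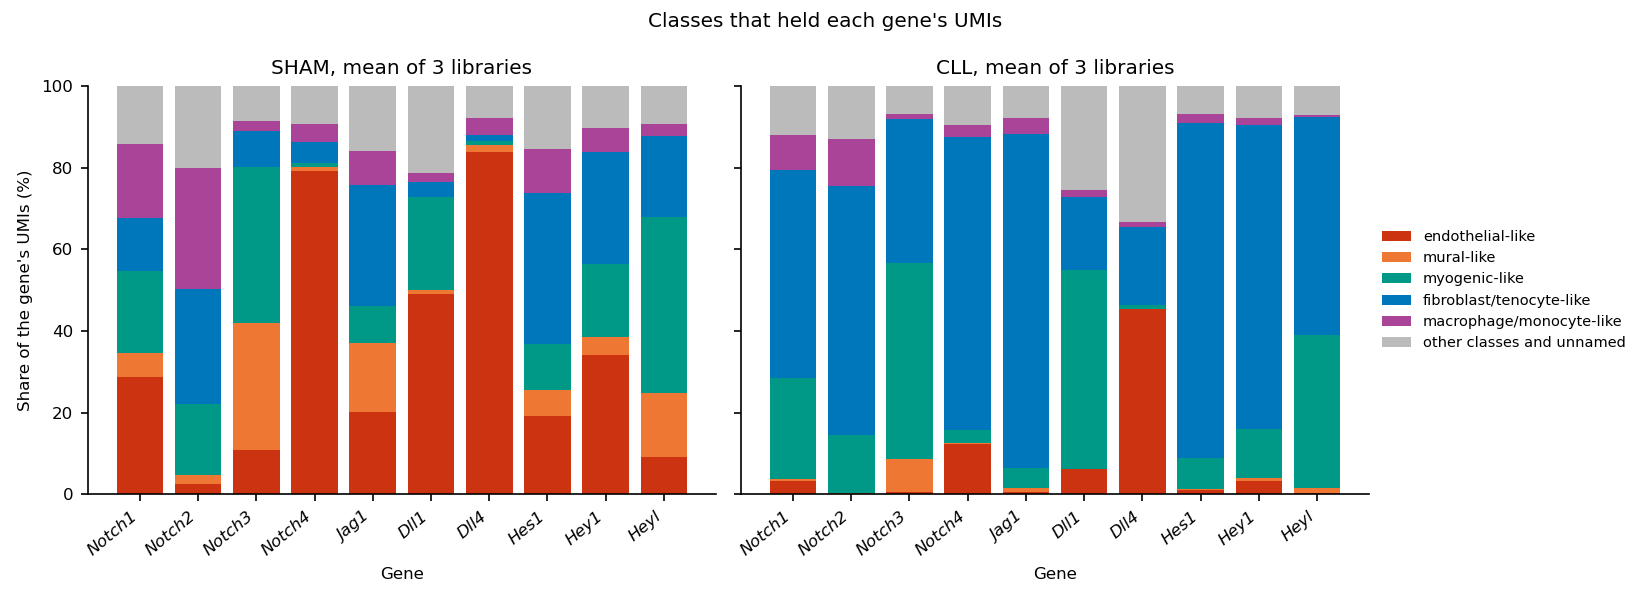
Share of each gene's UMIs held by each cell class, in percent (y axis, stacked to 100), as the mean of 3 SHAM libraries (left) and 3 CLL libraries (right). The endothelial-like share of Dll4 is 83.8% in SHAM and 45.3% in CLL, and that of Notch4 79.1% and 12.4%.

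The same fit was made in the fibroblast/tenocyte-like and macrophage/monocyte-like classes. In the fibroblast/tenocyte-like class, Notch2 lay at 28.4, 26.7 and 23.5 CPM in the CLL libraries and at 58.9, 44.6 and 53.8 CPM in the SHAM libraries, and it fell by 0.89 ± 0.12 on the log2 scale (edgeR adjusted p = 0.0016). Notch3 lay at 9.03, 5.91 and 8 CPM against 19.9, 14.1 and 12.1 CPM and fell by 0.90 ± 0.21 (edgeR adjusted p = 0.0135). These were 2 of 9 tested members, where 23.8% of all genes tested were called, 12.8% lower and 11% higher, a share near the members' own, and both calls stood in all 9 alternatives. With Notch1 they were the 3 members whose groups lay apart, lower in CLL, as 28.6% of all genes did (13.5% higher). The makeup of this class moved as well. A cluster led by Ly6h and Fbln7 held 381, 289 and 462 of its 1700, 6350 and 2671 CLL cells. It held 2215, 290 and 187 of the 3084, 389 and 324 SHAM cells. A cluster led by Ccn5 and Dio3 held 974, 1643 and 1622 CLL cells and 439, 22 and 27 SHAM cells. The part of this makeup in the Notch2 and Notch3 differences was not tested. In the macrophage/monocyte-like class, Notch1 lay at 17.8, 17.7 and 16.8 CPM against 35, 24.9 and 26.4 CPM and fell by 0.70 ± 0.14 (edgeR adjusted p = 0.0256). Hes1 lay at 22.7, 35.7 and 28 CPM against 54.3, 42.1 and 43.3 CPM and fell by 0.70 ± 0.15 (edgeR adjusted p = 0.0293). These were 2 of 6 tested members, where 3.66% of all genes were called, 2.33% lower and 1.33% higher, and 11.8% lay apart and lower, 9.65% apart and higher. Leaving out CLL replicate 1, CLL replicate 3 or SHAM replicate 3, or both CLL replicate 2 and SHAM replicate 3, left no member called there. Without CLL replicate 2 Notch1 was not called either (edgeR adjusted p = 0.0546), and Notch2 was (log2 difference -0.81, edgeR adjusted p = 0.022). The makeup of the macrophage/monocyte-like class moved too. Its cluster led by Ccr2 and H2-Eb1 held 93, 55 and 172 of the 641, 518 and 1034 CLL cells. It held 2342, 191 and 133 of the 5871, 439 and 425 SHAM cells. The part of this makeup in the Notch1 and Hes1 differences was not tested.

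Of 55 other genes of the pathway, 48 were tested in the myogenic-like class, 2 were higher and 2 lower in CLL, a share near the 6.95% of all genes called there, and their median log2 difference was -0.16, against -0.05 over all genes tested. Dlk1, a Delta-like protein that lacks the domain of classical ligands, fell by 2.01 ± 0.32 on the log2 scale (edgeR adjusted p = 0.0102), and Dtx4, a Deltex ubiquitin ligase, fell by 0.92 ± 0.18 (edgeR adjusted p = 0.0236). Fbxw7, part of the ubiquitin ligase that clears the Notch intracellular domain, rose by 0.77 ± 0.19 (edgeR adjusted p = 0.0467), and Hes6, a Hes family member that opposes Hes1 and favours myogenic differentiation, rose by 0.77 ± 0.18 (edgeR adjusted p = 0.0388). Nrarp, a feedback inhibitor induced by Notch, had a log2 difference of -1.19 ± 0.33 in the myogenic-like class (edgeR adjusted p = 0.0631) and of -1.04 ± 0.25 in the endothelial-like class (edgeR adjusted p = 0.131). In the endothelial-like class 0 of 42 and in the mural-like class 0 of 28 pathway genes were called, with 4 and 2 under an unadjusted p of 0.05. The smallest p values there after Nrarp belonged to Dtx3 (-0.93 ± 0.33), Mib1 (0.60 ± 0.23) and Maml2 (-1.04 ± 0.47) in endothelial-like cells, and to Spen (-1.32 ± 0.50), Maml3 (-1.02 ± 0.43), Efnb2 (0.84 ± 0.38) and Numbl (0.80 ± 0.41) in mural-like cells. Over all kept cells 17 of 51 were lower and 2 higher in CLL, where 19% and 17.6% of all genes were. Nrarp (-3.35 ± 0.27), the Notch-modifying sugar transferases Mfng (-2.45 ± 0.26) and Lfng (-1.44 ± 0.18), and the ligand Jag2 (-2.19 ± 0.19) were among the lower ones, with Dlk1, Neurl1b, Neurl3, Dtx4, Adam10, Adam17, Psen2, Aph1c, Ep300, Spen, Cir1, Gata2 and Ephb4. Numbl (0.79 ± 0.10) and Poglut1 (0.30 ± 0.09) were higher. Dlk1 also fell in the fibroblast/tenocyte-like (-3.57 ± 0.27) and macrophage/monocyte-like (-4.62 ± 0.53) classes, where 9 of 50 and 2 of 45 pathway genes were lower and none higher, against 12.8% and 2.33% of all genes called lower. The others were Neurl3, Dtx1, Dtx3, Dtx4, Aph1c, Kat2b, Cir1 and Gata2 in the first of these classes and Neurl3 in the second. Dlk1 was a top gene of the Ly6h-led fibroblast/tenocyte-like cluster and of the fibroblast-led myogenic-like subcluster 5. Of the fibroblast markers tested, 4 of 9 in the myogenic-like and 3 of 10 in the macrophage/monocyte-like class were called lower, and 0 higher. The part of fibroblast transcripts in the Dlk1 falls of those 2 classes was not tested.

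The genes whose mean profile over the 11 named classes was most like that of a member, by Pearson correlation of log2(CPM + 1) among 9210 genes, were Sox17 (r = 0.984) and Arhgef15 (r = 0.981) for Dll4, Dach1 (r = 0.968) and Fmo2 (r = 0.967) for Notch4, and Rcan2 (r = 0.932) and Daam1 (r = 0.925) for Notch3. For Notch1 they were Nudcd3 (r = 0.906) and Nrf1 (r = 0.892), for Notch2 Iqgap2 (r = 0.851) and Adcy7 (r = 0.841), for Jag1 Myl6 (r = 0.942) and Mylk (r = 0.941), and for Dll1 Myzap (r = 0.966) and Palmd (r = 0.936). For the targets they were Ro60 (r = 0.959) and Msl1 (r = 0.956) with Hes1, Imp3 (r = 0.968) and Rb1cc1 (r = 0.934) with Hey1, and Khdrbs3 (r = 0.968) and the gene ENSMUSG00000090053 (r = 0.948) with Heyl. The classes share libraries and cells of mixed profile, so these values describe 11 points and carry no p.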

How the data were processed

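Single-cell RNA was counted in 6 libraries (10x Chromium 3′ v3.1, per the labels' protocols), 3 per group, each from its own mouse. The deposited values are raw UMI counts per gene and barcode, which the authors made using Cell Ranger 6.1.2, per the headers of the files, on mm10 per the submitters' processing notes. How barcodes were selected and whether counting used strand were not stated in the material used. Notch1, Notch3, Notch4, Dll1 and Dll4 overlap genes on the opposite strand, so their counts could hold reads of those. On the same strand, Notch2 overlaps Gm42819 and Gm42820, and Notch1 overlaps Mir6996. The effect of any overlap on the counts was not tested.

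Of the barcodes, 53717 had 300 genes or more and no more than 15% of UMIs from mitochondrial genes. As doublets, the 7032 barcodes of highest Scrublet score were removed, a preset share per library of 0.8% per 1000 deposited barcodes. The removal was uneven: it left 19346 of 24188 cells in SHAM replicate 1 and 1848 of 1879 in SHAM replicate 2. Cells were clustered with scanpy 1.11.5 (2000 variable genes, 30 principal components, 15 neighbours, Leiden resolution 1, and 0.5 within a class, there without the 10 genes) and named from marker lists. The 10 members and all lists were chosen with earlier results of these data known. All 10 members are named in every class, with pathway genes that passed or had the 4 smallest p values in a class, and the 2 most alike genes per member among those reaching 20 CPM in some class. Counts were summed per class and library, and tested with edgeR 4.0.16 (quasi-likelihood, TMM, filterByExpr, Benjamini-Hochberg adjustment over all genes, threshold 0.05), with DESeq2 1.42.0 as an alternative; SE is the log2 fold divided by the root of F. Only the edgeR fit of CLL against SHAM was tried on simulated data, and the other steps were not. CPM values carry no TMM scaling. Scaling to total UMIs alone moved the median log2 difference of all genes to -0.16 in the endothelial-like and -0.15 in the myogenic-like class.

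Replicate numbers come from the labels, which do not say that they mark a shared day or batch. Deviations of same-numbered libraries correlated at 0.137, 0.31 and 0.174 in the endothelial-like class, over 0.1 in each pair, and not so in the other sets. Fits of further classes and of single subclusters, without subclusters led by another class, with scaling to total UMIs, and of the class differences without libraries were chosen after seeing the data. Poisson intervals cover counting error only. Gene positions are from GENCODE on GRCm38 and upstream sequences from RefSeq on GRCm38.p6.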

Additional observations from a re-analysis of the deposited data

How the results depend on the processing

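Values are log2 differences of CLL against SHAM, or counts of genes or members called. With DESeq2, Hes1 in the fibroblast/tenocyte-like class was 0.002197, Notch2 in the endothelial-like class 0.1964, and the class differences of Jag1 (myogenic-like minus mural-like) -0.0007662 and of Notch3 (myogenic-like minus endothelial-like) 0.1013. DESeq2 called 72 endothelial-like and 27 mural-like genes, and 6, 174 and 44 genes for the differences mural-like minus endothelial-like, myogenic-like minus endothelial-like and myogenic-like minus mural-like, against 2, 70 and 17 with edgeR. Without a filter on low counts 244 endothelial-like, 203 mural-like and 1461 myogenic-like genes were called, with 1 mural-like member (Notch1) and 4 myogenic-like members. With the replicate block 118 endothelial-like, 8 mural-like and 140 myogenic-like genes were called, 0 myogenic-like members (adjusted p = 0.138 for Notch2 and 0.08 for Notch3 by edgeR) and 1 macrophage/monocyte-like member (Notch1; the adjusted p of Hes1 was 0.0562); it changed no other call of a member. With doublets kept Notch1 was -0.0178 in the endothelial-like class, and 19 endothelial-like and 1243 myogenic-like genes were called. Clustered without the members, mural-like Notch3 was 0.07314. Scaled to total UMIs, Hes1 over all kept cells was -0.02954 and endothelial-like Notch1 -0.05403. Among myogenic-like cells, subclusters 7, 8 and 9 together gave 0 genes and 0 members. Subcluster 0 gave 80 genes, subcluster 2 gave 56 and subcluster 3 gave 104, each with 0 members, and Dll1 was -0.0209 in subcluster 3. Without subclusters led by another class 1526 genes and 5 members were called. Without cells with 2 lymphatic markers endothelial-like Hes1 was -0.02439. Without cells with 2 mural markers, endothelial-like Hey1 was 0.1319 and Notch3 0.6011, and 16 genes were called. Without the 2 libraries of fewest UMIs per cell, Hes1 was 0.1625 in the fibroblast/tenocyte-like class, endothelial-like Heyl 0.4519 and Notch2 0.3227, mural-like Notch3 0.04436, and the class differences of Heyl (myogenic-like minus endothelial-like) -0.6154 and of Jag1 (myogenic-like minus mural-like) -0.03575. That setting called 21 endothelial-like, 2016 fibroblast/tenocyte-like, 103 macrophage/monocyte-like and 287 myogenic-like genes, with 0 macrophage/monocyte-like members and 1 myogenic-like member, and 1, 220 and 9 genes for the class differences in the order above. The causes were not tested.

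Leaving out 1 library at a time gave, in the endothelial-like class, Notch1 from -0.1641 to 0.3549, Notch2 from -3.217 to 0.2918, Notch4 from -0.3656 to 0.005202, Dll1 from -0.3446 to 0.03814, Hes1 from -0.08134 to 0.5494, Hey1 from -0.756 to 0.1648, Heyl from -1.822 to 0.08919, Jag1 from -2.065 to -0.1897, Notch3 from -1.552 to -0.1147, and 11 to 59 genes called. In the mural-like class Notch3 ran from -0.5293 to 0.1094 and the genes called from 0 to 46. In the myogenic-like class 97 to 1351 genes and 0 to 2 members were called. Over all kept cells Hes1 ran from -0.04582 to 0.1686. In the fibroblast/tenocyte-like class Hes1 ran from -0.1096 to 0.1375, Dll1 from -0.6368 to 0.5269 and the genes called from 1870 to 3284. In the macrophage/monocyte-like class 42 to 694 genes and 0 to 4 members were called. For mural-like minus endothelial-like, Notch2 ran from -2.372 to 1.918, Notch4 from -5.844 to 0.7613, Jag1 from -0.05904 to 1.506, Heyl from -0.7184 to 0.6518 and the genes called from 0 to 5. For myogenic-like minus endothelial-like, Notch2 ran from -1.175 to 2.474, Notch3 from -0.6727 to 0.5049, Notch4 from -0.3049 to 0.74, Jag1 from -0.1371 to 1.599, Heyl from -0.4138 to 1.213 and the genes called from 0 to 250. For myogenic-like minus mural-like, Jag1 ran from -0.08661 to 0.2978 and the genes called from 0 to 58. A CLL library held 17 to 51 mural-like and 40 to 204 endothelial-like cells; the part of cell number in the absence of calls there was not tested.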
